A study of Homo sapiens with 7 samples.

Results

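PHGDH, PSAT1, PSPH, SHMT1, SHMT2, MTHFD1, MTHFD1L, MTHFD2 and TYMS make serine, move its side-chain carbon onto folate, and spend that carbon on thymidylate. These enzymes were taken by gene symbol from RNA sequencing of T-ALL cell lines, and each symbol matched 1 row, giving 9 of the 60662 genes measured. PHGDH, PSAT1 and PSPH convert an intermediate of glycolysis into serine. SHMT1 in the cytosol and SHMT2 in mitochondria split serine into glycine and a one-carbon unit bound to tetrahydrofolate. In mitochondria MTHFD2 oxidises that unit and MTHFD1L releases it as formate. In the cytosol the trifunctional enzyme MTHFD1 takes formate back up for purine and thymidylate synthesis. TYMS uses the one-carbon folate to turn dUMP into dTMP, a precursor of DNA, and is a target of antifolate drugs.

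The libraries were made from total RNA of PF-382 and MOLT-14, both human T-cell acute lymphoblastic leukaemia lines, with the same number of live cells per extraction. PF-382 supplied 2 wild-type libraries and 3 libraries of cells in which STAG2, a subunit of the DNA-looping cohesin ring, was knocked out by delivering Cas9 with a guide RNA as a ribonucleoprotein. MOLT-14 supplied 1 library of cells transduced with STAG2 and 1 of cells transduced with an empty vector (EV), and neither vector nor promoter is given in the sources used here. No drug or other treatment is listed for any library. The PF-382 labels carry codes (SA19 and SA28 for wild type 1 and 2, and SA20, SB23 and SB37 for knockout 1, 2 and 3). Nothing states whether these are clones or separate cultures, so the p-values below measure only the spread between these libraries. In bulk RNA, fewer cells of a kind and less RNA per cell cannot be told apart.

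Counts totalled 32609485 and 33145516 in wild-type PF-382, 65262329 to 93970572 in knockout, 38678382 in MOLT-14 EV and 45013450 in MOLT-14 STAG2. Expression is given as CPM, counts scaled to a common library size with TMM over the 7 libraries, and 3 counts made 0.0319 to 0.0920 CPM. STAG2 mRNA was 334 and 566 CPM in wild type and 179.7 to 256 in knockout, and 1.15 in EV against 137 with STAG2. The knockout libraries thus kept STAG2 reads. STAG1, its paralogue in cohesin, was 56.6 and 49.8 CPM in wild type, 138 to 142 in knockout, and 106 and 109 in MOLT-14. T-lineage markers summed to 2256 to 3700 CPM in the 7 libraries, with PTCRA near 0 in MOLT-14 and CD2 at 20 to 104 counts in PF-382. Erythroid and megakaryocyte markers summed to less than 1 CPM, and natural killer markers to 13.5 to 23.5 CPM. Stromal and epithelial markers summed to 26.9 and 10.6 CPM in wild type, 7.45 to 10.1 in knockout, 1.31 in EV and 1.26 with STAG2. Myeloid markers summed to 10.3 and 20.2 CPM in wild type and 0.532 to 1.42 in knockout. Nearly all of the wild-type sum was ITGAM (326 and 623 counts), and the other myeloid markers had at most 1 count each there. B-lineage markers summed to 41.7 and 9.58 CPM in wild type, 3.96 to 19.4 in knockout, 63.7 in EV and 84.1 with STAG2. Small RNA genes took 21.0% and 14.9% of the counts in wild type and 11.96% to 13.98% in knockout, against 4.87% in EV and 9.27% with STAG2. The part of these differences in the results below was not tested.

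In PF-382, SHMT1 and MTHFD1 rose in the knockout libraries and MTHFD2 fell. The other 6 enzymes, with the whole serine synthesis branch among them, were not called. The cytosolic enzymes of both steps were higher and the mitochondrial dehydrogenase lower, while SHMT2 and MTHFD1L, the other mitochondrial members, did not pass the test. Called means an adjusted p under 0.05 in edgeR's quasi-likelihood test over all 17442 genes tested, of which 30.5% were called, 15.9% higher and 14.6% lower. Against that background, 3 of 9 is close to the share of all genes. The groups of libraries did not overlap for these 3 members alone, SHMT1 and MTHFD1 above (31.8% of all genes tested) and MTHFD2 below (28.3%), a smaller share than the 60.0% of all genes in either direction. The median log2 change was -0.11 over the members and -0.02 over all genes.

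MTHFD2, the mitochondrial dehydrogenase and cyclohydrolase of the folate cycle (chromosome 2, 74198562 to 74217565, plus strand, GRCh38), read 425 and 322 CPM in wild type and 183, 188 and 182 in knockout. All 3 knockout libraries lay below both wild-type libraries and within a narrow band of each other. The means were 373 ± 72.7 (SD, n = 2) and 184 ± 3.29 CPM (SD, n = 3). Expression fell by 1.04 on the log2 scale (SE 0.15), 2.06-fold lower, with an adjusted p of 0.00556 in edgeR's quasi-likelihood test.

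SHMT1, the cytosolic serine hydroxymethyltransferase (chromosome 17, 18327860 to 18363563, minus strand), read 29.3 and 27.9 CPM in wild type and 59.2, 56.7 and 54.9 in knockout. The groups were far apart and each was tight, at 28.6 ± 0.996 (SD, n = 2) and 56.9 ± 2.15 CPM (SD, n = 3). Its log2 change was 0.96 (SE 0.11), 1.95-fold higher, with an adjusted p of 0.00372 in the same test.

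MTHFD1 (chromosome 14, 64388031 to 64463457, plus strand) read 71.2 and 101 CPM in wild type and 186, 148 and 123 in knockout. The groups did not overlap, but knockout 3 and wild type 2 were close. The means were 86.1 ± 21.1 (SD, n = 2) and 152 ± 32.0 CPM (SD, n = 3), and the log2 change was 0.80 (SE 0.23), 1.74-fold higher, with an adjusted p of 0.0429 in edgeR's test. That call was the least firm of the 3. It was lost without wild type 1 (adjusted p = 0.102), without knockout 1 (0.109), knockout 2 (0.103) or knockout 3 (0.056), and under 3 of the other settings (0.054 to 0.065). SHMT1 and MTHFD2 were called in every setting tried.

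The promoter sequences of the 3 called members are shown because these genes act on linked steps and moved in different directions. They are the 250 bases before the RefSeq start (GRCh38.p14), written 5′ to 3′ on the gene's strand, at chr2:74198365-74198614 for MTHFD2 (plus), chr14:64388103-64388352 for MTHFD1 (plus) and chr17:18363551-18363800 for SHMT1 (minus). Capitals mark CCAAT or its reverse complement ATTGG, the letters bound by the factor NF-Y, and CACGTG, the E-box letters that MYC and USF proteins bind.
MTHFD2: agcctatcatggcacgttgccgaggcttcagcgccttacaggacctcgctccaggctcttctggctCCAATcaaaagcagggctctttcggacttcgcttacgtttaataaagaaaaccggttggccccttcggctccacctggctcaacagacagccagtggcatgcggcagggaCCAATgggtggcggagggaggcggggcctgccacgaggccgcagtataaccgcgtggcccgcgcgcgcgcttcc
MTHFD1: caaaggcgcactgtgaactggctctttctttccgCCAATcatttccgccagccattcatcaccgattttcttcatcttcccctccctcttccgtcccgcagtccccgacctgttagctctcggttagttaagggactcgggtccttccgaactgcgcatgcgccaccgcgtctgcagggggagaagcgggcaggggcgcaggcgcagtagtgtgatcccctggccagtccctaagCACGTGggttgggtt
SHMT1: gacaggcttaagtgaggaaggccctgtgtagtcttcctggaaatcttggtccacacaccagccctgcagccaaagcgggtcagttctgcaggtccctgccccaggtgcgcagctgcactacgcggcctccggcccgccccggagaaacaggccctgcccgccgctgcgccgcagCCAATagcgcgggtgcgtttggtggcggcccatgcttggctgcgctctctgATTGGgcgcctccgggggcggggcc
CCAAT lay 74 and 184 bases before the start in MTHFD2 and 216 bases before it in MTHFD1. SHMT1 held CCAAT at 76 bases and ATTGG at 25, and MTHFD1 alone of the 3 held CACGTG, at 15 bases.

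The same search, on both strands, covered the 7 members with a promoter in the RefSeq table. CCAAT was in 6 of the 7 (MTHFD1, MTHFD1L, MTHFD2, PHGDH, PSAT1 and SHMT1) and in 32.0% of 35116 promoters of this length. CACGTG was in MTHFD1 and MTHFD1L and in 6.34% of promoters. TGATGNAA, letters of the element that ATF4 and CEBP proteins bind, was in MTHFD1L and in 3.14%. TTTCCCGC or TTTGGCGC, letters bound by E2F factors, was in TYMS alone of the 7, at 39 bases, and in 1.93%. MTHFD1L has 4 RefSeq starts and was counted if any of their windows held the letters. None of these motifs is contained in another. A match is a description of the letters and not evidence of binding.

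**Figure D1:**
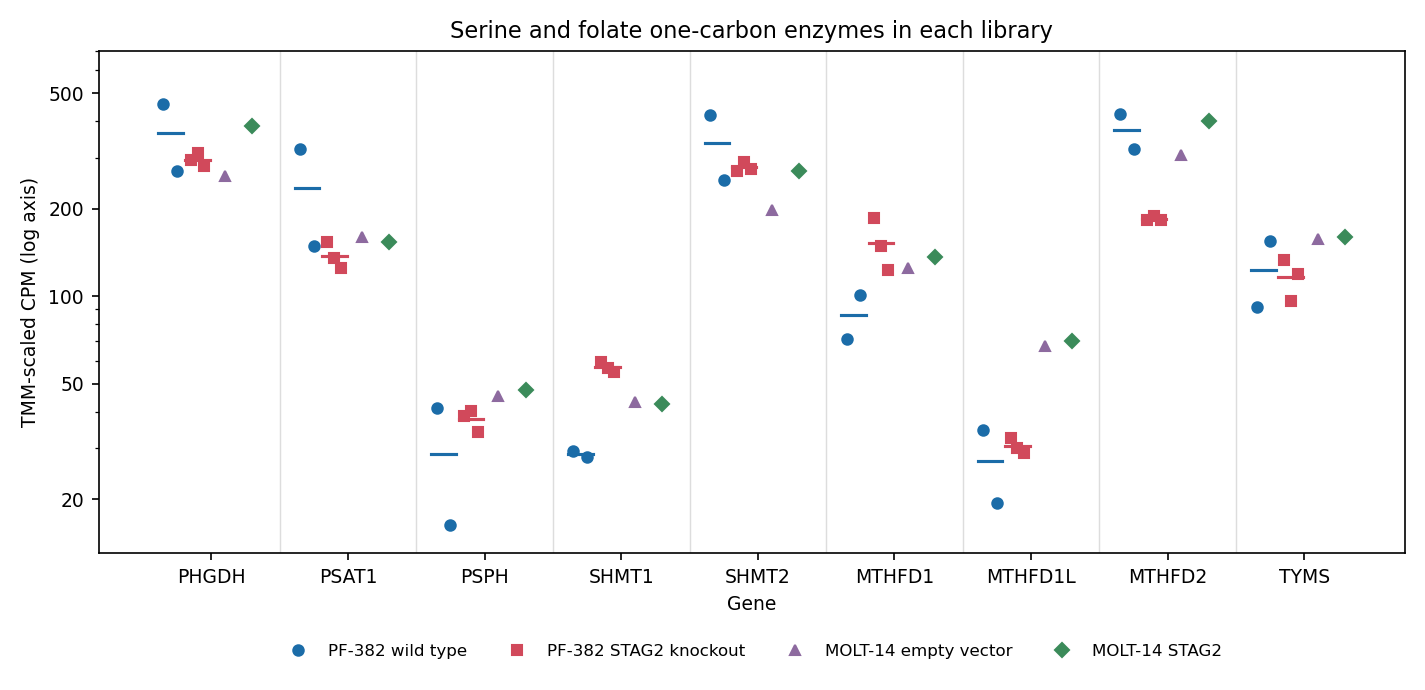
Expression of the 9 enzymes in each of the 7 libraries, in TMM-scaled CPM on a log axis, with circles for PF-382 wild type, squares for PF-382 STAG2 knockout, triangles for MOLT-14 EV, diamonds for MOLT-14 STAG2, and bars at the means of the PF-382 groups. The knockout squares lie apart from both wild-type circles for SHMT1 (above), MTHFD1 (above) and MTHFD2 (below), and the circles are wide apart for PHGDH, PSAT1, PSPH, SHMT2, MTHFD1L and TYMS, with wild type 1 the lower for TYMS.

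The serine synthesis enzymes were not called, and their wild-type libraries were far apart. PHGDH, the first enzyme of the branch (chromosome 1, 119648411 to 119744226, plus strand), read 459.9 and 269 CPM in wild type and 294, 312 and 280.2 in knockout. PSAT1, the aminotransferase that follows (chromosome 9, 78297143 to 78330093, plus strand), read 322 and 148 CPM in wild type and 153, 135 and 125 in knockout. For both genes wild type 1 was well above every other PF-382 library, and wild type 2 lay below the knockout libraries for PHGDH and among them for PSAT1. The log2 changes were -0.33 (SE 0.22, adjusted p = 0.299 by edgeR's quasi-likelihood test) and -0.80 (SE 0.30, adjusted p = 0.0887). PSAT1 was called lower by DESeq2 (adjusted p = 0.029).

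PSPH, the phosphatase that releases serine (chromosome 7, 56011051 to 56051604, minus strand), read 41.1 and 16.3 CPM in wild type and 38.7, 40.1 and 34.0 in knockout. Here wild type 2 was the library that stood apart, below the other 4. Its log2 change was 0.36 (SE 0.35, adjusted p = 0.459).

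SHMT2, the mitochondrial hydroxymethyltransferase (chromosome 12, 57229327 to 57234935, plus strand), read 421 and 251 CPM in wild type and 269, 291 and 275 in knockout. MTHFD1L, the mitochondrial formyltetrahydrofolate synthetase (chromosome 6, 150865549 to 151101887, plus strand), read 34.6 and 19.5 CPM in wild type and 32.4, 29.9 and 28.9 in knockout. In both, the knockout libraries lay between the wild-type pair. The log2 changes were -0.30 (SE 0.22, adjusted p = 0.327) for SHMT2 and 0.14 (SE 0.24, adjusted p = 0.671) for MTHFD1L.

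TYMS, thymidylate synthase (chromosome 18, 657604 to 673578, plus strand), read 91.6 and 155 CPM in wild type and 133, 96.4 and 119 in knockout. Again the knockout libraries fell between the wild-type values, and the log2 change was -0.11 (SE 0.25, adjusted p = 0.752 by edgeR's test). TYMS overlaps ENOSF1 and the antisense transcript TYMSOS on the minus strand. ENOSF1 was 24.8 and 20.5 CPM in wild type and 28.0 to 32.1 in knockout, TYMSOS was 5.75 and 3.50 against 2.38 to 2.88, and neither was called. The strand setting of the counting is not given in the sources used here, so reads of these genes cannot be told apart where they overlap.

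For 5 of these 6 members the call depended on which wild-type library was kept. Wild type 1 was above wild type 2 for 7 of the 9 members, against 51.8% of all genes tested, by 1.05-fold for SHMT1 and 2.52-fold for PSPH at the extremes. MTHFD1 and TYMS were lower in wild type 1, at 0.705 and 0.589 times wild type 2. Without wild type 2, PHGDH, PSAT1 and SHMT2 were called lower in knockout, with log2 changes of -0.64, -1.23 and -0.60 (adjusted p = 0.00808, 0.00238 and 0.00828 by edgeR's test). Without wild type 1, PSPH and MTHFD1L were called higher, at 1.18 and 0.63 (adjusted p = 0.00268 and 0.0139), PHGDH and SHMT2 turned to 0.12 and 0.13, and PSAT1 was -0.13 (adjusted p = 0.514). Each of these fits leaves 1 wild-type library, which is assumed to vary like the knockout libraries.

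A list of ATF4 and amino acid response genes, with no member in it, separated the wild-type pair in the same direction. Its summed level was 2496 CPM in wild type 1 and 1424 in wild type 2, against 1189 to 1256 in knockout, and 17 of its 19 tested genes were higher in wild type 1. Of the 19, 10 fell and 1 rose in knockout, with a median log2 change of -1.71. Without any 1 knockout library 6 fell, since ASNS, ATF3, CHAC1 and SESN2 lost their calls, and without wild type 1 9 fell, 4 rose and the median was -0.31. The stress-response genes DDIT4 and DDIT3 had log2 changes of -2.99 and -2.61 (adjusted p = 0.00218 for both), and ATF5 fell by 1.77 (adjusted p = 0.00351). ALDH18A1, the first enzyme of proline synthesis from glutamate, was the gene that rose, at 0.63 (adjusted p = 0.0154), and it was not called without knockout 1 (0.0543) or knockout 3 (0.0556). In MOLT-14 the 18 genes measured had a median log2 ratio of -0.24 with STAG2 over EV, ATF5 and TRIB3 were at 0.242 and 0.317 times EV, and DDIT3 and DDIT4 at 0.848 and 1.30 times. ATF5 was thus higher with STAG2 in PF-382 and lower with it in MOLT-14. The part of these genes in the members' values was not tested.

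**Figure D2:**
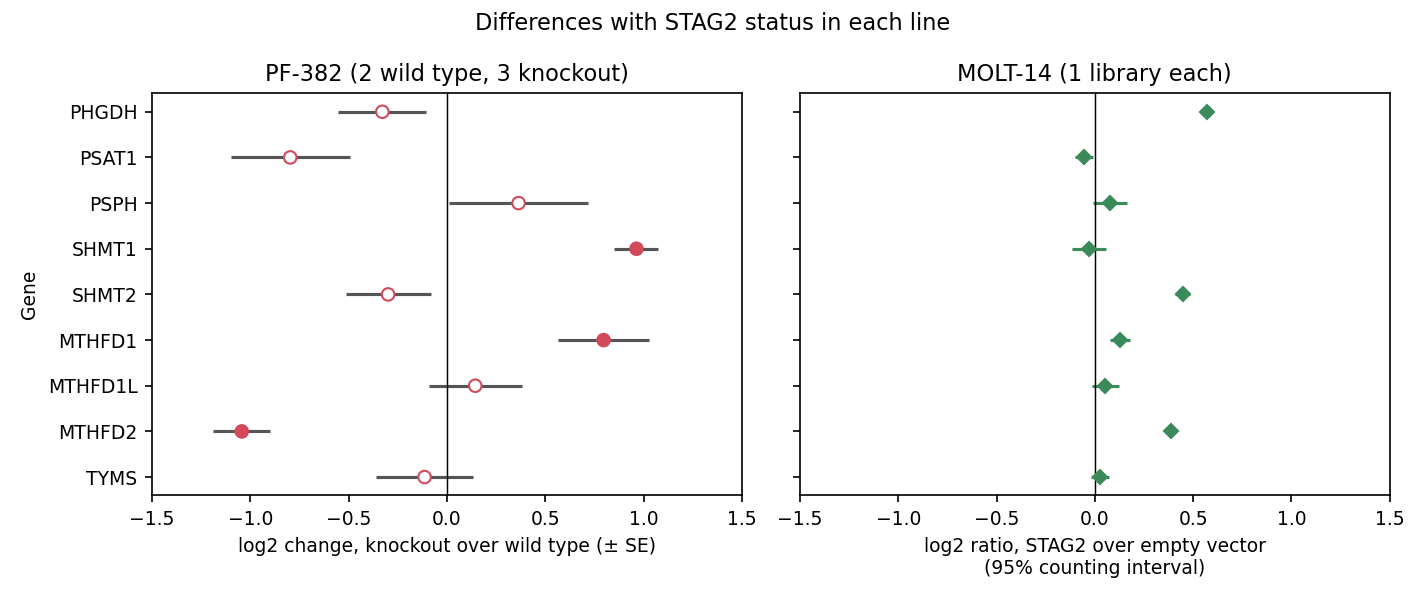
Log2 change of each enzyme in PF-382 knockout over wild type with its standard error (left, filled where the adjusted p is under 0.05) and log2 ratio of STAG2 over EV in MOLT-14 with its 95% counting interval (right, 1 library each, no test). SHMT1 at 0.96, MTHFD1 at 0.80 and MTHFD2 at -1.04 are the filled points.

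In MOLT-14 the STAG2 and EV libraries differed little for most of the enzymes, and none of the 9 passed 1.5-fold, against 7.0% of 11126 genes measured (3.83% higher and 3.17% lower with STAG2). There is 1 library per group, so these ratios have no replicate check, and the 95% exact intervals cover counting error only. PHGDH read 259 CPM in EV and 384 with STAG2, a ratio of 1.48 (1.45 to 1.52), just inside the fold used. SHMT2 was 198 and 270.1 CPM, a ratio of 1.36 (1.33 to 1.40), and MTHFD2 was 307 and 401 CPM, a ratio of 1.31 (1.28 to 1.34). These were the 3 highest ratios of the 9.

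Among the rest, MTHFD1 was 125 and 137 CPM, a ratio of 1.09 (1.06 to 1.13), and PSAT1 was 160.1 and 154 CPM, a ratio of 0.962 (0.932 to 0.993). The intervals of the other 4 members included 1. PSPH was 45.2 and 47.6 CPM, MTHFD1L was 67.3 and 69.8, TYMS was 157 and 160.1, and SHMT1 was 43.4 and 42.5. The members' median log2 ratio was 0.08, beside 0.04 over all genes measured. With library totals in place of TMM scaling every member's ratio moved down beyond its counting interval, to log2 0.39 for PHGDH, 0.27 for SHMT2 and 0.21 for MTHFD2, and the log2 ratios of MTHFD1, PSPH, MTHFD1L and TYMS lay under 0.

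The direction that STAG2 goes with was compared between the lines as the wild-type minus knockout change in PF-382 less the STAG2 minus EV change in MOLT-14. In edgeR's 4-group fit 0 of the 9 members were called, against 0.634% of 20042 genes, while 1 member, SHMT1, was under 0.05 before adjustment and 1, again SHMT1, was called by DESeq2. Over all genes 21.4% were under 0.05 before adjustment and 11% were called by DESeq2, so 1 of 9 is near or below those shares. SHMT1 differed by -0.96 on the log2 scale (SE 0.20, adjusted p = 0.0779). MTHFD1 differed by -0.95 (adjusted p = 0.246), MTHFD2 by 0.63 (0.247) and PSAT1 by 0.83 (0.442), and the other 5 had adjusted p of 0.723 or more. SHMT1 rose 1.95-fold in PF-382 knockout and was at 0.980 times EV in MOLT-14 with STAG2, and the difference between lines did not pass the threshold with all 7 libraries. It was called without wild type 1 (adjusted p = 0.0262) or wild type 2 (0.0335), as were PSPH without wild type 1 (0.0248) and PSAT1 and MTHFD2 without wild type 2 (0.0244 and 0.0318). In those fits 11.4% and 10.4% of all genes were called.

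Between the lines, MTHFD1L and MTHFD2 were called higher in MOLT-14, against 55.5% of 20042 genes called, 28.5% higher and 27.0% lower. MTHFD1L was 67.3 and 69.8 CPM in MOLT-14 and 19.5 to 34.6 in the 5 PF-382 libraries, with no overlap. The log2 difference was 1.26 (SE 0.21), 2.39-fold, with an adjusted p of 0.0030 in edgeR's quasi-likelihood test, and it was called in every setting tried. For MTHFD2 the 307 and 401 CPM of MOLT-14 lay inside the PF-382 range of 182 to 425. Its log2 difference from the mean of the 2 PF-382 groups was 0.42 (SE 0.13, adjusted p = 0.0357), and the call was lost without any 1 knockout library (0.0797 to 0.0877) and with STAG2 status as an additive term (0.0820).

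PSPH and TYMS were also higher in both MOLT-14 libraries than in all 5 PF-382 libraries, at log2 differences of 0.50 (adjusted p = 0.218) and 0.41 (adjusted p = 0.162), and were not called. No overlap between lines was seen for 56.5% of all genes tested, and for 3 of the 9 members. PHGDH (-0.06, adjusted p = 0.832), PSAT1 (-0.20, 0.579), SHMT1 (0.09, 0.480), MTHFD1 (0.19, 0.446) and SHMT2 (-0.40, 0.138) were not called. Without wild type 2, PSAT1 and SHMT2 were called lower (adjusted p = 0.0206 and 0.00246) and TYMS higher (0.0104), and without wild type 1 PSPH was called higher (0.000758). All residual spread in this fit comes from PF-382, and 1 line is set against 1 line.

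To compare genes with each other, the authors' TPM was used, which is scaled by transcript length, and only within a library. PHGDH, SHMT2 and MTHFD2 were the 3 most abundant members in wild-type PF-382, at 114 and 82.8, 101 and 77.2, and 88.7 and 85.8 TPM. PHGDH was above SHMT2 in both libraries, and MTHFD2 was the lowest of the 3 in wild type 1 and the highest in wild type 2. MTHFD2 was below PHGDH and SHMT2 in every knockout library, and it ranked 4, 3 and 4 of the 9 in knockout 1, 2 and 3. It was 49.6, 45.6 and 41.1 TPM there, beside TYMS at 57.4, 36.5 and 42.7, while PHGDH was 77.8 to 104 and SHMT2 76.0 to 87.9. Its share of the summed TPM of the 9 enzymes was 20.8% and 22.4% in wild type and 11.96% to 13.14% in knockout.

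Lower in the order, PSAT1 (26.0 to 38.4 TPM) and MTHFD1 (21.9 to 42.0) changed places between knockout libraries, as did SHMT1 (11.8 to 15.2) and PSPH (9.87 to 13.3). MTHFD1L was lowest in knockout at 5.22 to 6.64. In wild type 1 SHMT1 (5.32 TPM) and MTHFD1L (5.61) were lowest. In wild type 2 MTHFD1L (4.35) and PSPH (4.88) were lowest, below SHMT1 (6.99). In MOLT-14 MTHFD2 led at 194 and 185 TPM, above PHGDH at 165 and 162. SHMT2 at 125 and 116 and TYMS at 129 and 83.2 changed places between EV and STAG2. SHMT1 at 25.7 and 15.3 and MTHFD1L at 27.2 and 17.9 were among the lowest.

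Ratios of a mitochondrial to a cytosolic enzyme were computed in each library and were chosen after the values were seen. MTHFD2 over MTHFD1 in TPM was 7.93 and 3.90 in wild type, 1.18, 1.55 and 1.88 in knockout, 3.54 in EV and 4.50 with STAG2. SHMT2 over SHMT1 was 19.05 and 11.04 in wild type, 5.77, 6.67 and 6.43 in knockout, 4.87 in EV and 7.56 with STAG2. Both ratios were lower in every knockout library than in either wild-type one, and in MOLT-14 both were lower in EV. MTHFD1L over MTHFD1 was 0.502 and 0.198 in wild type and 0.158 to 0.239 in knockout, which overlap. MTHFD2 over MTHFD2L, its mitochondrial paralogue, was 15.6 and 16.6 in wild type, 6.50 to 7.53 in knockout, 19.8 in EV and 29.3 with STAG2. These ratios reuse the members' values above and were given no test.

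**Figure D3:**
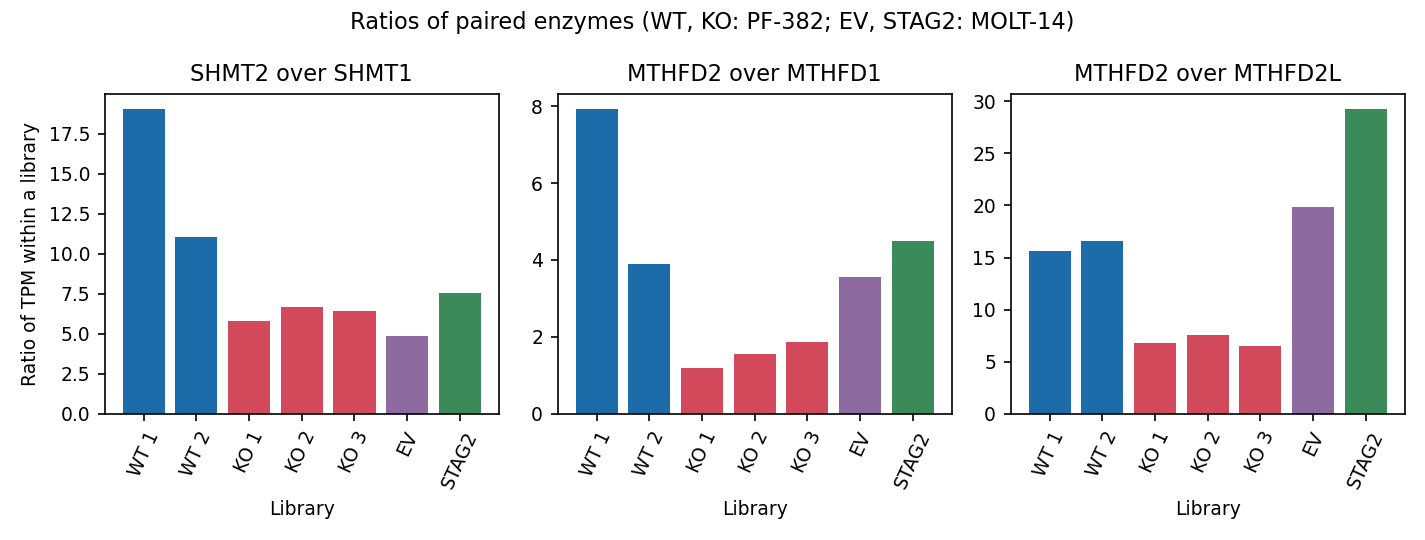
Ratios of TPM within each library (bars from 0) for SHMT2 over SHMT1, MTHFD2 over MTHFD1 and MTHFD2 over MTHFD2L, with WT and KO for PF-382 and EV and STAG2 for MOLT-14. In all 3 panels the KO bars are below both WT bars and the EV bar is below the STAG2 bar.

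The genes around these enzymes were counted from lists of folate handling, other folate enzymes, the methionine cycle, and serine and glycine transport and breakdown. Of 44 genes tested, 17 rose and 1 fell in knockout, 40.9% beside 30.5% of all genes, with a median log2 change of 0.46. Upper-quartile scaling gave 14 higher and 4 lower, and without knockout 2 11 were called, all higher. Folate uptake, retention and reduction genes had 4 of 8 called, all higher, with a median of 1.09. SLC19A1, the reduced folate carrier, was 18.1 ± 2.20 CPM in wild type (SD, n = 2) and 71.8 ± 6.25 in knockout (SD, n = 3), 3.90-fold higher. The mitochondrial folate carrier SLC25A32 went from 20.4 to 53.0 CPM (2.55-fold) and FPGS, which adds the glutamate tail that retains folate, from 25.7 to 76.3 (2.91-fold), with adjusted p of 0.00218 to 0.00367. GGH and QDPR had log2 changes of 0.28 and 0.61 and were not called, and the folate receptors FOLR1, FOLR2 and FOLR3 had no counts.

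Among the other folate enzymes 7 of 16 rose and 1 fell, with a median of 0.57. GLDC and GCSH of the glycine cleavage system rose 4.65-fold and 2.31-fold, and the purine synthesis enzyme GART rose 2.18-fold (adjusted p = 0.00218 to 0.00379), while AMT of the same cleavage system fell by 2.04 on the log2 scale from a low 1.79 CPM (adjusted p = 0.0159). ATIC, MTRR, SARDH and the weakly expressed ALDH1L1 rose by 0.89, 0.57, 2.10 and 3.34, and each of these calls was lost when 1 or more single libraries were left out. AMT was lost without knockout 1 (0.0542) or knockout 2 (0.0610), ATIC without knockout 2 (0.0505), SARDH without knockout 1 (0.0575) or 3 (0.0532), MTRR without any 1 knockout library (0.110 to 0.134), and ALDH1L1 without any of these 3 (0.0543 to 0.0951) or wild type 2 (0.0584). MTHFS, MTHFD2L, MTFMT, MTR and DLD had log2 changes of 0.12 to 0.58 and were not called.

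In the methionine cycle 3 of 9 rose, with a median of 0.24: MAT2A (1.13), which makes the methyl donor S-adenosylmethionine, AHCY (0.88), which clears its product, and MAT1A, which rose from 7.60 to 15.5 CPM. AHCY was lost without knockout 2 (adjusted p = 0.0534) and MAT1A without knockout 2 (0.0873), knockout 3 (0.0798) or wild type 2 (0.0649). Of 11 serine and glycine transport and breakdown genes 3 rose, at a median of -0.07. They were SFXN2 (2.55), SFXN1 (0.47), the mitochondrial serine carrier, and GCAT, which rose from 21.2 to 43.2 CPM, an enzyme of threonine breakdown to glycine. SFXN1 was not called without any 1 knockout library (adjusted p = 0.0895 to 0.113). The share called was 33.3% in the methionine cycle and 27.3% in serine and glycine transport and breakdown. Both were close to the 30.5% of all genes.

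Genes that supply dTMP and dTTP beside TYMS had 3 of 12 higher and 1 lower, with a median of 0.29. The share called, 33.3%, was close to the 30.5% of all genes. DCTD, CTPS1 and DTYMK were higher, at 0.78, 1.06 and 0.41. TK2, the mitochondrial thymidine kinase, fell by 0.95. DTYMK was lost without wild type 1 (0.0881) or any 1 knockout library (0.0942 to 0.170). S-phase genes had 14 of 17 higher, with CDC45, MCM5 and GINS2, at 1.09, 1.16 and 1.16, of the smallest adjusted p, and 1 lower, the licensing factor CDT1, which fell by 0.82 (adjusted p = 0.00626). The count higher was 9 without knockout 3, where CDC6, E2F1, FEN1, MCM4 and SLBP lost their calls, and 10 and 11 without knockout 1 and 2. TYMS, often counted with S-phase genes, was not called in the same libraries. In MOLT-14, 3 of the 17 S-phase genes were past 1.5-fold higher with STAG2, against 3.83% of all genes measured. Their median log2 ratio was 0.39, and CDC45 was at 1.57 times EV. CDC45 was thus higher with knockout in PF-382 and higher with STAG2 in MOLT-14.

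**Figure D4:**
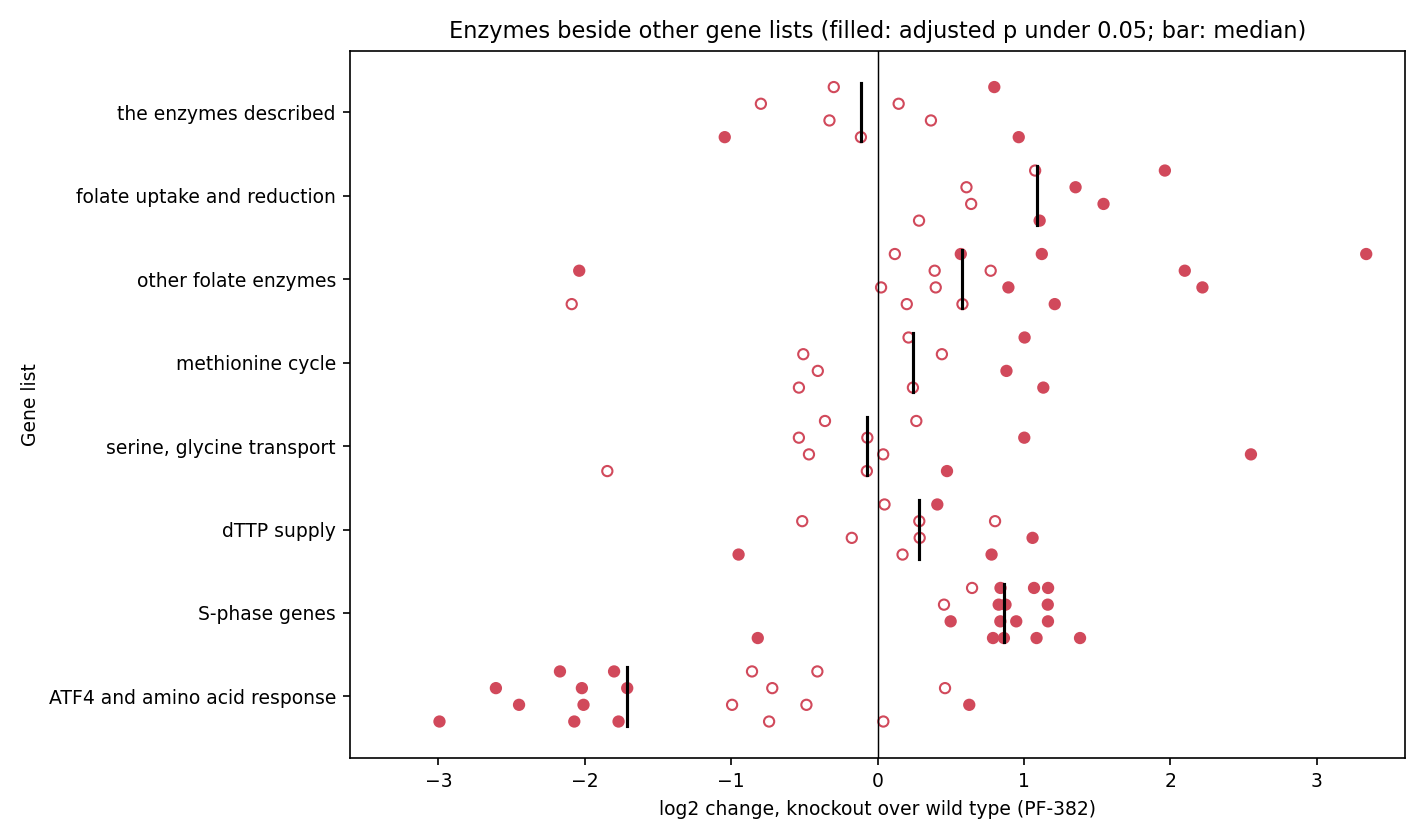
Log2 change in PF-382 knockout over wild type of every tested gene of each list (points, filled where the adjusted p is under 0.05, shifted vertically only to keep them apart), with the median of each list as a bar. The 9 enzymes have a median of -0.11, folate uptake and reduction genes 1.09, S-phase genes 0.86 and ATF4 and amino acid response genes -1.71. TK1 of the dTTP supply list lies beyond the axis and is not drawn, but counts in the median.

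In MOLT-14 none of 33 genes of the wider one-carbon lists was 1.5-fold higher with STAG2, against 3.83% of all genes measured. One gene, GCSH, was 1.5-fold lower, at 0.641 times EV (0.572 to 0.717), against 3.17% of all genes measured. The folate carriers SLC19A1 (37.7 and 35.7 CPM in EV and STAG2) and SLC25A32 were at 0.947 and 0.879 times EV, and FPGS at 0.973.

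Copies of the members took few reads. Of 14 pseudogenes of MTHFD1, MTHFD2, PSAT1, PSPH and SHMT1, 7 had any count, and the highest was 22 counts, for MTHFD1P1 in knockout 2. The other detected ones were MTHFD2P7, PSAT1P1, PSAT1P3, PSAT1P4, PSPHP1 and SHMT1P1. MTHFD1 and PSAT1 had a fractional expected count in 1 library each, and the other 7 members had whole counts throughout.

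For each member the 2 protein-coding genes with the most similar profile over the 7 libraries were taken among 10145 genes of at least 5 CPM, by the root mean square difference of centred log2 CPM. SHMT1 had the closest, ZNF664 (0.0453) and XPO5 (0.0473). MTHFD1L was followed by GLYCTK (0.0745) and CCDC9 (0.0838), TYMS by B4GALT6 (0.0805) and ARID1A (0.103), and PSAT1 by LMTK3 (0.0806) and RAB39B (0.116). MTHFD1 had NDST1 (0.0986) and DCAF1 (0.118), MTHFD2 had AC073111.4 (0.110) and TCEA2 (0.124), and SHMT2 had SARS (0.111) and PINK1 (0.116). The least close were those of PHGDH, ZNF695 (0.125) and UBXN1 (0.132), and of PSPH, CCDC113 (0.125) and KRCC1 (0.129). No other member was the nearest gene of any member.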

How the data were processed

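Total RNA of 7 libraries was sequenced. STAR, RSEM and the builds GRCh38 and hg38 are named without versions in the submitters' processing notes, and the annotation release and strand setting are not given in the sources used here. Per the file headers, the authors deposited expected counts per gene (estimated reads, not normalised), TPM (scaled by length to a fixed sum per library) and FPKM, which was not used. Expected counts, of which 91.8% to 93.3% were whole, were rounded and 92 spike-ins left out. 

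The PF-382 libraries were fitted with edgeR 4.0.16 in R 4.3.3 (TMM scaling, filterByExpr, quasi-likelihood test, two-sided, Benjamini-Hochberg adjustment over all genes tested, threshold 0.05), and all adjusted p values are of this kind unless DESeq2 1.42.0 is named. Standard errors were derived from the log2 change and the F statistic. The comparison of lines and the difference between lines used a fit of 4 groups over all 7 libraries, in which the lone MOLT-14 libraries are assumed to vary like those of PF-382. MOLT-14 ratios used a prior count of 2 and genes of at least 5 CPM in either library, with exact Clopper-Pearson intervals at 95%. These intervals hold counting error alone, because each MOLT-14 group has 1 library, and floors of 3 counts also hold counting error alone. PCR copies carry no molecular identifier, so the counting error itself may be understated. Positions are from GENCODE 29 and promoters from RefSeq (GRCh38.p14).

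In simulated counts of the PF-382 design, 200 of 17442 genes were changed and every gene was given the same spread between replicates. There the test found 26% of the 2-fold and 94% of the 4-fold changes, and 6.98% of its calls were genes left unchanged. In the real libraries 30.5% of genes were called, so these rates need not carry over. The members and lists were chosen with earlier results of these data known. Named genes were all members, up to 3 of each list per direction by adjusted p, folate genes of at least 5 CPM, detected copies and neighbours, and the nearest profiles, and a few genes that this rule names are not reported here. Other scalings, filters, tools, designs and libraries left out were tried as alternatives.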

Additional observations from a re-analysis of the deposited data

Results flagged for a closer look

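In the wider one-carbon lists, SLC19A1 and SFXN2 had a STAG2 difference that differed between the lines in edgeR's 4-group fit, and neither is a member. They were not the only named genes called there. Others included ATF5 (log2 3.79) and DDIT3 (2.82), with adjusted p of 0.0470 for both in that fit, and STAG1 (-1.44, adjusted p = 0.0471). SLC19A1 and SFXN2 each rose in PF-382 knockout and were closer between the MOLT-14 libraries. SLC19A1, the reduced folate carrier, was 19.7 and 16.5 CPM in wild type and 76.3, 74.5 and 64.7 in knockout, against 37.7 in EV and 35.7 with STAG2. The wild-type minus knockout change less the STAG2 minus EV change was -1.91 on the log2 scale (adjusted p = 0.0470). SFXN2, a mitochondrial sideroflexin, was 7.69 and 5.86 CPM in wild type and 42.7, 40.7 and 37.9 in knockout, against 25.8 in EV and 22.3 with STAG2, a difference of -2.36 (adjusted p = 0.0470).

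Without wild type 1 and without wild type 2 the differences were -2.54 and -2.16 for SFXN2 and -2.01 and -1.78 for SLC19A1. Both calls were lost without any 1 knockout library (adjusted p = 0.164 to 0.203 in the same edgeR fit). The differences were then -2.32 to -2.40 for SFXN2 and -1.86 to -1.98 for SLC19A1. In each fit without a knockout library 0 genes were called over all genes tested, so the loss was not particular to these genes. Upper-quartile scaling gave 0.0603 for SFXN2 and 0.0657 for SLC19A1, and protein-coding genes alone gave 0.0528 for SLC19A1. The difference kept its sign in each of these settings.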

How the results depend on the processing

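SHMT1 and MTHFD2 in PF-382, MTHFD1L between lines and the count of 0 members past 1.5-fold in MOLT-14 kept their direction and side of the threshold under every alternative run. The count of members higher in knockout was 1 in place of 2 with a minimum of 1 CPM, with protein-coding genes only and with upper-quartile scaling, where MTHFD1 was lost, and the count lower was 2 with DESeq2. One member was called between lines with line and STAG2 status as additive terms, and 1 member by DESeq2 for the difference between lines. Leaving out each library in turn gave 1 to 3 members higher and 1 to 4 lower in knockout, 1 to 5 between lines and 0 to 3 for the difference between lines, with 2267 to 6305 calls over all genes in PF-382 and 11 to 23 calls in the wider one-carbon lists. The libraries left out were the 5 of PF-382, and neither MOLT-14 library was left out. The lowest counts over all genes came without a knockout library.

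Upper-quartile scaling shifted the median log2 change of all genes in PF-382 from -0.02 to -0.18, between lines from 0.05 to 0.19 and for the difference between lines from 0.05 to 0.27, and 33.8% of PF-382 calls were then higher in place of 52.1%. With it MTHFD1L was -0.030 in PF-382, PHGDH 0.086 between lines, and SHMT2 0.060 and MTHFD1L 0.011 in the difference between lines. With protein-coding genes only PHGDH was 0.044 between lines. None of these was called.

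Signs that turned when a library was left out were those of uncalled members. In PF-382 the log2 change ranged from -0.64 to 0.12 for PHGDH, -0.60 to 0.13 for SHMT2, -0.13 to 1.18 for PSPH, -0.19 to 0.63 for MTHFD1L and -0.44 to 0.34 for TYMS. Between lines it ranged from -0.21 to 0.18 for PHGDH and -0.41 to 0.15 for PSAT1. For the difference between lines the ranges were -0.68 to 0.085 for PHGDH, -1.25 to 0.066 for PSPH, -0.57 to 0.17 for SHMT2, -0.67 to 0.15 for MTHFD1L and -0.35 to 0.42 for TYMS. The cause of these shifts was not tested.

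No paired analysis was possible because the labels give the groups no shared replicate numbers. With 1 library per MOLT-14 group and 2 wild-type libraries of 32609485 and 33145516 counts, the number of libraries and not the depth limits the members' precision, since every member had at least 504 counts in each library.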

Other observations

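The values below are of genes chosen after they were seen. TK1, the cytosolic thymidine kinase that makes dTMP by salvage beside TYMS, is listed at 0 counts in both wild-type PF-382 libraries and has 1834, 17 and 1024 counts in knockout 1, 2 and 3, 5444 in EV and 9251 with STAG2. AFMID, its neighbour on the other strand (TK1 at chromosome 17, 78174075 to 78187233, and AFMID at 78187317 to 78207701), has 2 and 0 counts in wild type, 453, 5 and 221 in knockout, and 1340 and 1512 in MOLT-14. Knockout 2 is thus near the wild-type libraries for both genes and apart from knockout 1 and 3. The genes on either side, SYNGR2 and BIRC5, have 449 and 7664 counts or more in each PF-382 library. TK1 was not called (adjusted p = 0.0589 by edgeR's quasi-likelihood test).

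PYCR1, an enzyme of proline synthesis in the amino acid response list, is listed at 0 counts in both MOLT-14 libraries and has 941 to 4321 in PF-382. For TK1, AFMID and PYCR1 the files cannot tell a locus that is not transcribed or not present from reads lost in counting, so a value of 0 says only how the gene is listed.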
